A study of Mus musculus with 108 samples.

Results

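The D-type cyclins, their kinases, the inhibitors of those kinases and the retinoblastoma gene were examined in cultured mouse germline stem cells. The 10 genes were chosen by name from the 26218 genes of the table: Ccnd1, Ccnd2, Ccnd3, Cdk4, Cdk6, Cdkn1b, Cdkn2a, Cdkn2c, Cdkn2d and Rb1. All 10 were present. A sample is a single cell, and sample titles place each in 1 of 4 culture lines. GSC1 (30 cells) and GSC2 (24 cells) were germline stem cells, which are spermatogonial stem cells kept in culture. GSCLC1 (30 cells) and GSCLC4 (24 cells) were labelled germline stem cell-like cells. For GSC2 the source was independent testes at postnatal day 7. For GSCLC4 it was reconstituted testes, which had been in culture for 3 weeks at 34 °C. The labels do not describe the origin of GSC1 and GSCLC1. Where 4 values follow each other below, they stand for GSC1, GSC2, GSCLC1 and GSCLC4, in that order.

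All cells shared the background 129/SvJcl x C57BL/6 and the AcrAct_EGFP reporter, and all were grown with GDNF, basic FGF, LIF and EGF. RNA was amplified by SC3-seq, which reads the 3′ ends of polyadenylated transcripts, and values are in RPM, reads scaled to the total of each cell. Because a transcript is read at its end, RPM was not divided by length, and levels of different genes are compared as RPM on that basis. Each line is 1 culture and its cells are not replicates of a cell type, so types were compared over lines, 2 against 2.

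The estimated depth was 1998000 to 6040000 reads per cell, with line medians of 3714000, 4301000, 3187000 and 3262000 reads. A line mean of 5 RPM in at least 2 lines was required for a test. All 8 germ cell markers passed 5 RPM in every line, among them Dazl at 3193 to 3521 RPM. One cell of GSC1 stood apart: 5748 genes were detected in it against a line median of 8791, with 13880 RPM of the fibroblast marker Vim and 517 RPM of Dazl. It is called the low-gene cell, and line values printed here that it moves by over 1.5 times are given with and without it.

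D-type cyclins bind CDK4 or CDK6, and these complexes begin the phosphorylation of the retinoblastoma protein, which releases E2F transcription factors and lets a cell pass from G1 into S phase. Growth factors act on this step mainly through the D-type cyclins. The INK4 proteins, encoded by Cdkn2a to Cdkn2d, bind CDK4 and CDK6 directly, whereas p27, encoded by Cdkn1b, belongs to the CIP/KIP family and acts chiefly on cyclin-CDK2 complexes. In the testis, D-type cyclins and these inhibitors are known as regulators of spermatogonial proliferation, differentiation and the exit into meiosis.

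Ccnd2 dominated the D-type cyclins in all 4 lines. Of the summed D-type cyclin RPM it made up 83.4%, 83.3%, 89.3% and 90.9%. Ccnd1 made up 15.2%, 15.6%, 9.56% and 7.31%, and Ccnd3 between 1.05% and 1.74% in any line. The share of Ccnd2 was thus higher in both GSCLC lines, by a mean of 6.78 percentage points. The two-sided exact permutation test over lines gave p = 0.3333, which is the smallest p that 2 lines against 2 can give.

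**Figure D1:**
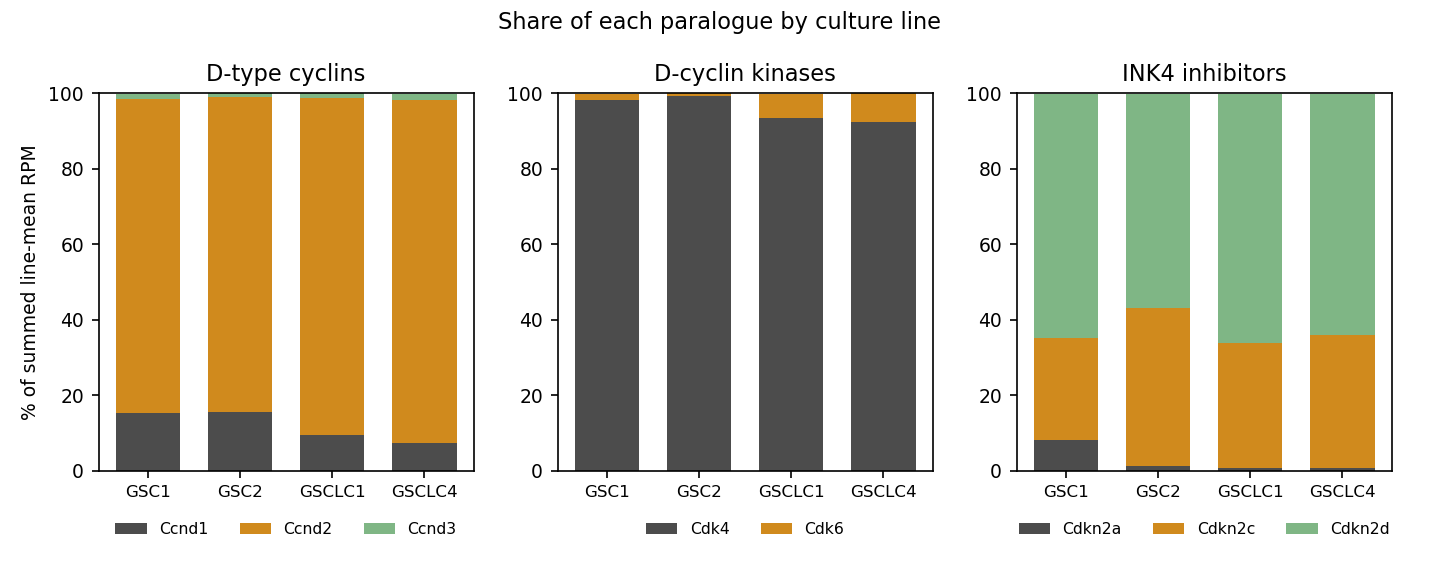
Stacked bars give each paralogue's percentage of the summed line-mean RPM of its family in each of the 4 culture lines, for D-type cyclins, D-cyclin kinases and the INK4 genes Cdkn2a, Cdkn2c and Cdkn2d, without Cdkn2b. Ccnd2 takes 83.3% to 90.9% of the first family and Cdk4 92.5% to 99.3% of the second, while Cdkn2d takes 56.9% to 66.2% of the third.

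Ccnd2 encodes cyclin D2 (chromosome 6, 127125162 to 127152188, GRCm38.p6). Its level across cells ran from 67.6 through a median of 791 to 1629 RPM in GSC1 and from 5.13 through 556 to 1407 RPM in GSC2. In GSCLC1 it ran from 122.5 through 822 to 3053 RPM, and in GSCLC4 from 379.6 through 766 to 1974 RPM. Every cell of every line had Ccnd2 at 5 RPM or more, and the ranges of all 4 lines overlapped. The line means were 775 ± 460.0, 646 ± 329, 891 ± 638 and 823 ± 367 RPM (SD over 30, 24, 30 and 24 cells). Both GSCLC means lay above both GSC means, by less than the spread between cells. Here and below, that spread describes single cells and is not the error of a line mean. In limma the log2 fold change was 0.27 ± 0.15 (SE, 95% interval -0.05 to 0.60), with an adjusted p of 0.639.

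Ccnd1 encodes cyclin D1 (chromosome 7, 144929931 to 144939831), the family member most often tied to mitogen signalling. It ran from 0 through a median of 84.0 to 541 RPM in GSC1 and from 1.03 through 113.4 to 401 RPM in GSC2. It ran from 0 through 77.9 to 417 RPM in GSCLC1 and from 0.26 through 37.3 to 317 RPM in GSCLC4. From highest to lowest the line means were 141.1 ± 149.9, 121.2 ± 94.8, 95.3 ± 96.2 and 66.2 ± 75.98 RPM (SD over cells), and neighbours in that order differed by less than the spread between cells. The highest GSC1 value belonged to the low-gene cell, and the GSC1 mean was 127.3 RPM without it. The log2 fold change was -0.71 ± 0.26 (SE, 95% interval -1.29 to -0.14), with an unadjusted p of 0.0190 and an adjusted p of 0.495 in limma, so Ccnd1 did not pass. The summed level of 10 fibroblast markers had line means of 2863, 763, 313 and 515 RPM, with 1132 RPM in GSC1 when the low-gene cell was left out. Among these Col3a1 was at 0 in GSC2 and GSCLC4, and Col1a2 at 0 in GSC2 and GSCLC1. Within lines the Spearman correlation of Ccnd1 with that sum was between 0.10 and 0.55 over cells, and the part of such cells in the Ccnd1 difference was not tested.

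Ccnd1 also differed between groups of cells within GSC1. The GSC1 cells carry serial numbers 65 to 80 (13 cells) and 129 to 150 (17 cells). Ccnd1 had a mean of 100.7 RPM in the first run and 171.9 RPM in the second, or 148.9 RPM without the low-gene cell. With only the first run in GSC1 the log2 fold change was -0.47 (unadjusted p = 0.133), and with only the second it was -0.85 (unadjusted p = 0.0157), both in limma. The share of Ccnd2 differed between the types by 4.58 and 8.53 percentage points in these settings. Both GSCLC lines stayed above both GSC values in each, since GSC1 had a Ccnd2 share of 87.8% with the first run alone and 79.9% with the second.

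Ccnd3 encodes cyclin D3 (chromosome 17, 47505051 to 47599689) and was the least expressed of the family, at line means of 13.7, 8.12, 11.4 and 15.8 RPM. It ran from 0 through a median of 9.26 to 55.3 RPM in GSC1 and from 0.47 through 6.96 to 27.4 RPM in GSC2. It ran from 0 through 3.12 to 120.1 RPM in GSCLC1 and from 0 through 12.6 to 41.01 RPM in GSCLC4. Cells at 5 RPM or more made up 66.7%, 58.3%, 40% and 83.3% of these lines. In GSCLC1 the highest cell alone held 35.1% of the line's Ccnd3. The lines of the types overlapped (log2 fold change 0.32 ± 0.57, SE, limma adjusted p = 0.929).

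The low Ccnd3 values carry a further limit. The 3′ end of Ccnd3 overlaps that of Bysl, a ribosome biogenesis gene on the other strand, by 361 bases in GENCODE M21. Bysl had line means of 102.4 to 151.5 RPM. Across cells its Spearman correlation with Ccnd3 was 0.64, 0.69, 0.69 and 0.61, and it was the most alike of 5811 candidate genes by the median over lines, where the 99th percentile was 0.26. The sources used here do not say whether counting used the strand, so Ccnd3 reads and Bysl reads cannot be told apart. Overlapping ends did not always go with correlated values: Cdk4 and Tspan31 share 641 bases and had correlations of -0.11 to 0.20. Annotated genes on the other strand also overlap Ccnd1 (LTO1, 1771 bases), Ccnd2 (Gm43126, 994 bases) and Rb1 (Rcbtb2, 24171 bases) at the 3′ side. The 3′ ends of these pairs lie 1770, 993 and 24170 bases apart, against 360 for Ccnd3 and Bysl. Rcbtb2 had correlations of -0.14 to 0.34 with Rb1, and LTO1 and Gm43126 had no values here. Whether the levels of Ccnd1, Ccnd2 and Rb1 carry a like limit is therefore not known.

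**Figure D2:**
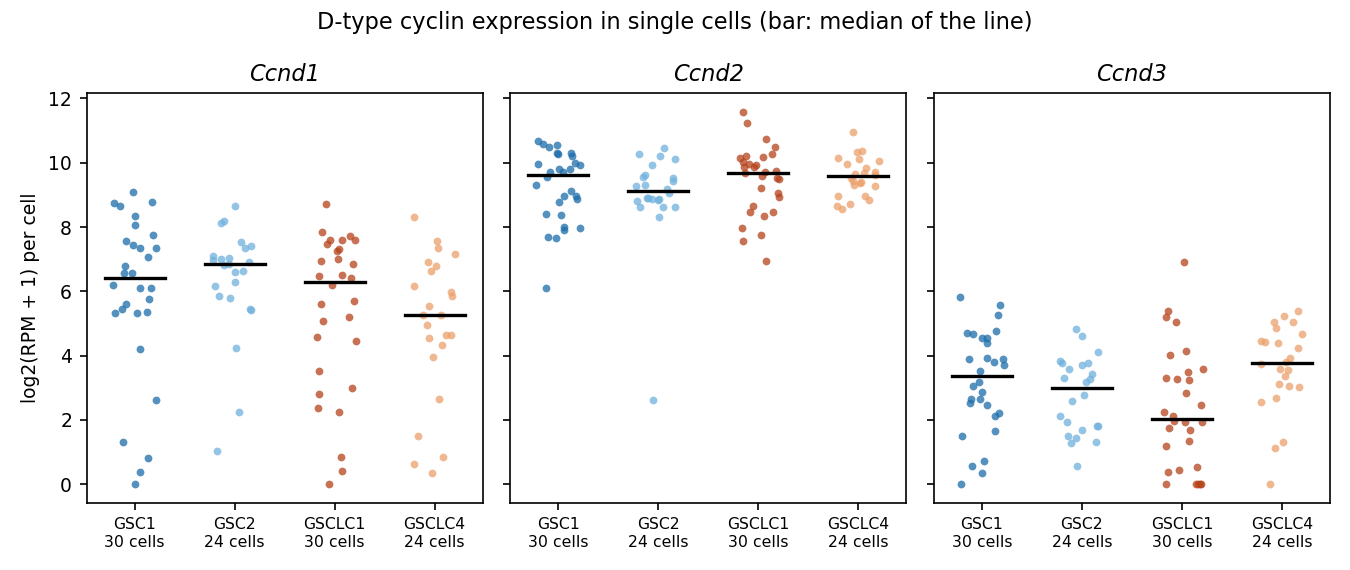
Each point is 1 cell, plotted as log2(RPM + 1) for Ccnd1, Ccnd2 and Ccnd3 in the 4 lines, with a bar at the line's median. Ccnd2 medians of 556 to 822 RPM stand above Ccnd1 medians of 37.3 to 113.4 RPM and Ccnd3 medians of 3.12 to 12.6 RPM.

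Within single cells Ccnd2 was the highest D-type cyclin in 30 of 30 GSC1 cells, 22 of 24 GSC2 cells, 30 of 30 GSCLC1 cells and 24 of 24 GSCLC4 cells. The exact 95% interval for GSC2 was 73.003% to 98.97%, which covers counting error only. Both exceptions were GSC2 cells in which Ccnd1 was higher, at 401 RPM beside 316 RPM of Ccnd2 and at 54.99 RPM beside 5.13 RPM. The median share of Ccnd2 within a cell was 84.1%, 83.5%, 92.1% and 92.96%. Of line means, Ccnd2 exceeded Ccnd1 by 5.49-fold and 5.33-fold in the GSC lines and by 9.34-fold and 12.4-fold in the GSCLC lines. The paralogues were at most weakly correlated, since the Spearman correlation of Ccnd1 with Ccnd2 over cells was between -0.09 and 0.26 in the 4 lines.

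The rule for genes of like pattern named, for each cyclin, the 3 with the highest median correlation among 5811 candidate genes in these same data. The 99th percentiles of the candidates were 0.24 for Ccnd1, 0.26 for Ccnd2 and 0.26 for Ccnd3. Being the highest of so many, the named genes were not tested as partners of the cyclins. For Ccnd2 the most alike was LOC100861633, with a median correlation of 0.57 and line means of 141.7 to 178 RPM. It had no match in the RefSeq annotation by identifier, so its place in the genome is not given here. The germ cell RNA-binding gene Nanos3 and the poly(A)-binding protein gene Pabpc1 followed at 0.40 and 0.39. For Ccnd1 the genes were Abcb6 (0.36), Rgl2 (0.36) and the actin-binding gene Tmsb4x (0.34), and for Ccnd3 after Bysl they were the histone variant gene H2afz (0.42) and the helicase gene Brip1 (0.36). Abcb6 had the opposite sign in GSC1 (-0.30), as did H2afz in GSC2 (-0.42), Pabpc1 in GSCLC4 (-0.13) and Brip1 in GSCLC1 (-0.06). Values of H2afz and Pabpc1 were often not whole reads (57.4% and 39.8% of values above 0), and these are descriptions over 24 to 30 cells per line that share a culture.

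Ccnd2 correlated negatively with mitotic transcripts in all 4 lines. Its Spearman correlation with the mean level of 18 G2 and M phase genes was -0.40, -0.52, -0.28 and -0.23. With 18 S phase genes it changed sign between lines (-0.37 to 0.26). Ccnd1 changed sign with both lists (-0.21 to 0.37 and -0.15 to 0.23), and Rb1 stayed between -0.04 and 0.10. With the G2 and M phase genes Cdk4 had -0.39, -0.17, -0.36 and 0.11, and Cdkn1b stayed positive (0.09 to 0.20). Ccnd3 (-0.44 to 0.20) and Cdk6 (-0.30 to 0.22) changed sign with them. How many of all genes keep 1 sign over the lines was not counted. The Ccnd2 values also ranged from -0.32 to 0.18 with estimated depth and from 0.02 to 0.35 with spike-in RPM, and no test was made over cells.

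Among the kinases Cdk4 was detected in every cell, whereas Cdk6 was detected in 12.5% to 53.3% of the cells of a line, with the larger shares in the GSCLC lines. Cdk4 and Cdk6 encode the alternative catalytic partners of D-type cyclins. Of their summed RPM Cdk4 made up 98.3%, 99.3%, 93.5% and 92.5%, with 99.8% in GSC1 when the low-gene cell was left out. The difference of -5.76 percentage points had the smallest p the design allows (exact permutation test, p = 0.3333). Cdk4 had the higher value in all cells but 1, a GSCLC1 cell in which Cdk6 made up 52.6%.

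Windows of 300 bases around the annotated starts of the paralogous kinase genes, from 250 bases upstream to 50 downstream, are shown because the line mean of Cdk4 was 56.8, 136.3, 14.5 and 12.3 times that of Cdk6, or 466 times in GSC1 without the low-gene cell. The Cdk4 window lies at the start given for the gene below, whereas the Cdk6 window lies at a start 2889 bases further downstream, inside the span given for the gene. They are taken from RefSeq (GRCm38.p6), where 7 of the 10 genes had a window (Ccnd3, Cdk4, Cdk6, Cdkn1b, Cdkn2a, Cdkn2c and Cdkn2d). Capitals mark matches, on either strand, to the E-box CACGTG, the GC box GGGCGG, the CCAAT box CCAAT or the cyclic AMP element TGACGTCA. Matches are descriptions of letters, not of binding.
Cdk4, chr10:127063285-127063584, plus strand: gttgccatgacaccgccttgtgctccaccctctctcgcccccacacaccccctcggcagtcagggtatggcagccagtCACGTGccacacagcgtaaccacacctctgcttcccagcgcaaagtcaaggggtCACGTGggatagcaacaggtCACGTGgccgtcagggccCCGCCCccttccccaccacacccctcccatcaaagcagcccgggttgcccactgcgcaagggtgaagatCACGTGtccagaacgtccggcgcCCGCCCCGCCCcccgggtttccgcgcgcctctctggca
Cdk6, chr5:3343643-3343942, plus strand: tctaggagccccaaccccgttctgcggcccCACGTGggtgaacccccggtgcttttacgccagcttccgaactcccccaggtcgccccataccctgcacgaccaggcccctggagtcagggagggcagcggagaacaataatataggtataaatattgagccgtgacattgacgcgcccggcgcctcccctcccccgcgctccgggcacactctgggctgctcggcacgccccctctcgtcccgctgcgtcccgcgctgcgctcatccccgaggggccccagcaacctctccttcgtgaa
The Cdk4 window held 4 E-boxes and 3 GC boxes, of which 2 share a letter, and the Cdk6 window held 1 E-box and 0 GC boxes. Of 32851 windows in the RefSeq table, 7.15% held an E-box, 35.7% a GC box, 37.4% a CCAAT box and 1.79% the cyclic AMP element. Their GC contents of 67% and 66.7% lay above the median of 52.7% over all windows.

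Cdk4 (chromosome 10, 127063535 to 127067288) was the most even of the 10 genes. It ran from 76.998 through a median of 306 to 601 RPM in GSC1, from 75.1 through 317 to 462 RPM in GSC2, from 44.9 through 282 to 615 RPM in GSCLC1 and from 68.6 through 264 to 522 RPM in GSCLC4. The line means of 289.7, 295, 297 and 273 RPM lay within 1 SD over cells of each other, and the coefficient of variation was between 0.37 and 0.44. The log2 fold change was -0.04 ± 0.18 (SE), with a 95% interval from -0.42 to 0.35 in limma.

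Cdk6 (chromosome 5, 3341004 to 3531008) had line means of 5.10, 2.16, 20.6 and 22.2 RPM. The medians over cells were 0, 0, 0.36 and 0 RPM and the highest cells had 135.2, 51.5, 246 and 165.2 RPM. The GSC means rested on single cells. The low-gene cell held 88.4% of the GSC1 sum, and the GSC1 mean was 0.61 RPM without it, while 1 cell held 99.2% of the GSC2 sum. The lines of the types did not overlap, and limma gave a log2 fold change of 2.35 ± 0.63 (SE, 95% interval 0.97 to 3.72) with an unadjusted p of 0.00293 and an adjusted p of 0.353. Cdk6 therefore did not pass over all genes, although it had the lowest p of the tested members. Both GSCLC means met the 5 RPM needed for a test. GSC2 did not, and GSC1 did so only with the low-gene cell. Cdk6 was thus tested through the type in which it was high, which limits what its p and fold can show. Without the low-gene cell the log2 fold change was 3.31 and the limma adjusted p 0.170. Within GSC1, Cdk6 had a mean of 0.013 RPM in the first run of serial numbers and 8.99 RPM in the second, or 1.101 RPM without the low-gene cell. With only the first or only the second run in GSC1, the log2 fold change was 3.64 or 1.99 (limma unadjusted p = 0.00154 and 0.0188).

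Cells with Cdk6 above 0 RPM made up 20% of GSC1 (6 of 30, exact 95% interval 7.71% to 38.6%) and 12.5% of GSC2 (3 of 24, 2.66% to 32.4%). They made up 53.3% of GSCLC1 (16 of 30, 34.3% to 71.7%) and 45.8% of GSCLC4 (11 of 24, 25.6% to 67.2%). At 5 RPM or more the counts were 2 of 30, 1 of 24, 10 of 30 and 9 of 24 cells. Both GSCLC lines had larger shares than both GSC lines, and lower median depths. Thinned to the lowest depth, the expected shares were 15.5%, 7.83%, 50.8% and 44.1% (exact permutation test over lines, p = 0.3333). Among GSCLC1 cells Cdk6 correlated with Ccnd1 at a Spearman coefficient of 0.58, but the values were 0.01, 0.25 and 0.14 in the other lines.

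**Figure D3:**
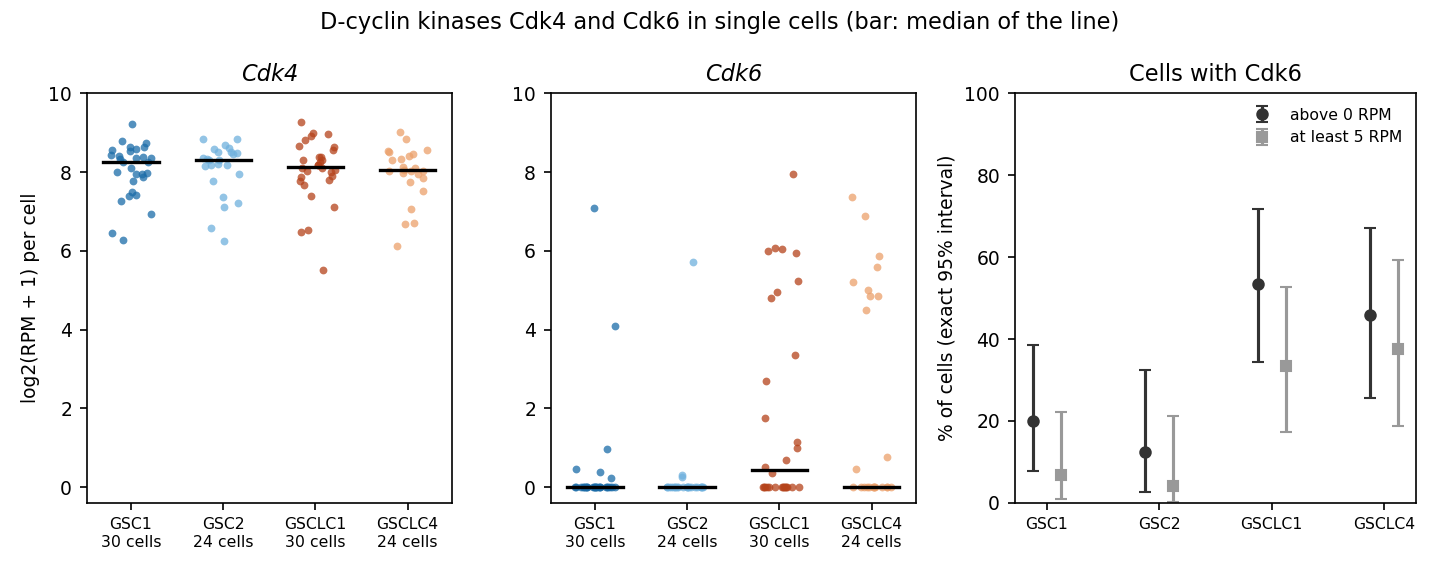
The first panels plot Cdk4 and Cdk6 per cell as log2(RPM + 1) with the line's median as a bar. The last panel gives the percentage of cells with Cdk6 above 0 RPM or at 5 RPM or more, with exact 95% intervals, where 33.3% and 37.5% of GSCLC1 and GSCLC4 cells reach 5 RPM against 6.67% and 4.17% of GSC1 and GSC2 cells.

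The summed level of markers of Sertoli cells, a somatic cell type of the testis, was also higher in both GSCLC lines, and the part of such cells in the Cdk6 difference was not tested. The 7 Sertoli markers summed to a mean of 14.2, 6.18, 24.6 and 51.5 RPM. Amh was at 0 in all 4 lines, and Cldn11 at 0 in all but GSCLC4 (0.24 RPM). Wt1 had 3.94, 0.55, 11.3 and 25.8 RPM, whereas Sox9 was highest in GSC1, at 4.86, 0.94, 3.40 and 3.38 RPM. In GSCLC1, Wt1 reached 5 RPM in 3 of the 10 cells with at least 5 RPM of Cdk6 and in 2 of the other 20 cells. In GSCLC4 it did so in 4 of 9 and in 8 of the other 15 cells. The Spearman correlation of Cdk6 with the Sertoli sum was between -0.12 and 0.13, and with Wt1 between -0.22 and 0.28.

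The 4 inhibitor genes were low or undetected in most cells. Their summed mean was 8.16, 14.8, 16.9 and 34.5 RPM, against 929.7, 776, 997 and 905 RPM for the summed D-type cyclins. The inhibitors exceeded the cyclins in 0 cells. None of the 4 genes was detected in 15 of 30, 7 of 24, 11 of 30 and 2 of 24 cells, and 0 cells had all 4. A gene with no read in a cell may still be expressed below what this depth shows.

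Cdkn1b encodes p27 (chromosome 6, 134920401 to 134925525) and had its highest mean in GSCLC4. Line means were 0.66, 1.63, 2.25 and 15.6 RPM, and in GSCLC4 cells ran from 0 through a median of 3.98 to 129.2 RPM. It was detected in 5 of 30, 3 of 24 and 7 of 30 cells of the first 3 lines and in 15 of 24 GSCLC4 cells (62.5%, exact 95% interval 40.6% to 81.2%). The intervals of the other lines were 5.64% to 34.7%, 2.66% to 32.4% and 9.93% to 42.3%, and only that of GSCLC1 overlapped it. These intervals cover counting error only and do not compare lines. Thinned to the lowest depth, the expected shares were 14.9%, 12.5%, 21.6% and 59.1%. Median detected genes per cell were 8791, 9181.5, 8607 and 9866, highest in GSCLC4. The Spearman correlation of Cdkn1b with detected genes was 0.26, 0.39, 0.30 and 0.03, and its part in the difference was not tested. Only GSCLC4 reached a mean of 5 RPM, so the gene was not tested, and 1 line against another has no replicate. In GSCLC4 the highest cell held 34.5% of the Cdkn1b sum, 6 of the 12 cells at 5 RPM or more also had at least 5 RPM of Wt1, as did 6 of the other 12 cells, and the correlation with the Sertoli sum was 0.04.

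The INK4 genes were each detected in under 50% of the cells of every line. Cdkn2d, which encodes p19 INK4D (chromosome 9, 21288459 to 21291421), had the highest line mean of the 3 in every line, at 4.86, 7.51, 9.71 and 12.1 RPM. It was detected in 30%, 45.8%, 40% and 29.2% of cells, with highest values of 49.3, 101.99, 161.2 and 84.3 RPM. The highest cell held 33.8%, 56.6%, 55.3% and 29% of the line's Cdkn2d, so the order of the line means rested on few cells. Both GSCLC means lay above both GSC means without passing (log2 fold change 0.75 ± 0.64, SE, limma adjusted p = 0.791). Within GSC1 its mean was 1.28 RPM in the first run of serial numbers and 7.61 RPM in the second. Of the summed RPM of the 3 genes Cdkn2d made up 64.9%, 56.9%, 66.2% and 64.1%, and in GSC1 this share was 19.4% in the first run and 92.8% in the second.

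Cdkn2c encodes p18 INK4C (chromosome 4, 109660876 to 109666756). Its means were 2.02, 5.53, 4.85 and 6.68 RPM, and it was detected in 16.7%, 20.8%, 20% and 29.2% of cells. In GSC1 a single cell of 56.7 RPM held 93.7% of the sum. The lines overlapped (log2 fold change 0.59 ± 0.80, SE, limma adjusted p = 0.895). Cdkn2c and Cdkn2d were detected together in 2 of 30, 1 of 24, 3 of 30 and 2 of 24 cells.

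Cdkn2a was close to undetected in every line. Its means were 0.62, 0.18, 0.097 and 0.12 RPM, and the highest cell of all had 7.05 RPM. One GSC1 cell reached 5 RPM and 0 cells did in the other lines, so the gene was not tested. Cdkn2a (chromosome 4, 89274473 to 89294619) encodes the unrelated proteins p16 INK4A and p19 ARF from separate first exons. The GENCODE transcripts of 852 and 895 bases share 575 exonic bases and end 70 bases apart, so 3′ reads give 1 value for both products. The first exons, which share 0 bases, tell the products apart and lie outside what was read. The windows around both starts are shown with capitals as above. They hold mostly sequence upstream of the starts and only part of each first exon.
Cdkn2a, upstream start, chr4:89294570-89294869, minus strand: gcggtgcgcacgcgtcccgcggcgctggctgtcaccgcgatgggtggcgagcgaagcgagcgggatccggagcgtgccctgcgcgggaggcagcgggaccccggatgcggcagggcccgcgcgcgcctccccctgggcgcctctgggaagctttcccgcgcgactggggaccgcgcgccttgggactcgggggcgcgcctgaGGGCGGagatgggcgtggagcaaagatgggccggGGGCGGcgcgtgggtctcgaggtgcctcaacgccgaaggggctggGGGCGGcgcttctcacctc
Cdkn2a, downstream start, chr4:89282143-89282442, minus strand: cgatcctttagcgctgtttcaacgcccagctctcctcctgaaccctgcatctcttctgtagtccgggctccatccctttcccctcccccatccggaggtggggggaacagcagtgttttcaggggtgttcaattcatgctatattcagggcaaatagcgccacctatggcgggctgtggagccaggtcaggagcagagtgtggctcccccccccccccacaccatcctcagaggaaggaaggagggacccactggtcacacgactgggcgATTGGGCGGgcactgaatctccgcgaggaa
The upstream window held 3 GC boxes at a GC content of 77%. The downstream window, at 60.3%, held 1 GC box that overlaps a CCAAT box.

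**Figure D4:**
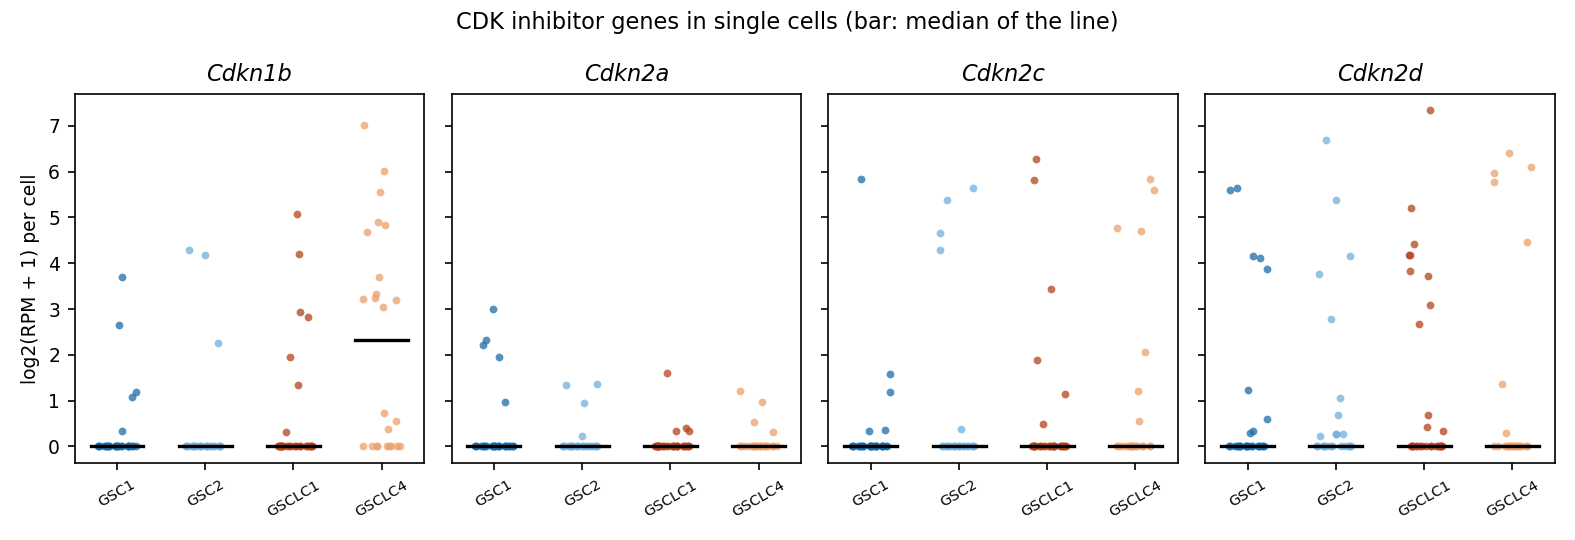
Each point is 1 cell, plotted as log2(RPM + 1) for Cdkn1b, Cdkn2a, Cdkn2c and Cdkn2d in the 4 lines, with a bar at the line's median. Outside Cdkn1b in GSCLC4 most cells lie at 0, all line medians are 0 except that of Cdkn1b in GSCLC4 (3.98 RPM), and Cdkn2a stays at or under 7.05 RPM.

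Some CDK inhibitor genes outside the 10 had higher levels. Cdkn2b, the remaining INK4 gene, had 12.8, 4.75, 10.3 and 11.96 RPM, with 8.11 RPM in GSC1 when the low-gene cell was left out. With it included, Cdkn2b made up 63.1% (51.1% without the low-gene cell), 26.4%, 41.3% and 38.7% of the summed INK4 RPM and Cdkn2d 23.9%, 41.8%, 38.9% and 39.2%. Cdkn2b thus had the highest line mean of the 4 INK4 genes in GSC1 and GSCLC1 and Cdkn2d in GSC2 and GSCLC4, and no INK4 gene was the highest in over 44.4% of the cells with any. Cdkn1a, which encodes the p53-induced inhibitor p21, had 63.9, 28.5, 10.1 and 54.2 RPM (log2 fold change -0.83, limma adjusted p = 0.768). Cdkn1c, which encodes p57, had 28.9, 7.63, 24.9 and 21.4 RPM (log2 fold change 0.58, limma adjusted p = 0.837). Cdkn1a and Cdkn1c had higher line means than Cdkn1b in all 4 lines, and Cdkn2b in all lines but GSCLC4.

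Rb1 encodes the retinoblastoma protein, the substrate on which these kinases act (chromosome 14, 73192858 to 73325951). Its line means were 60.6, 98.8, 65.97 and 52.1 RPM. It ran from 0.37 through a median of 41.1 to 214 RPM in GSC1, from 0.40 through 75.4 to 280.1 RPM in GSC2, from 0 through 39.4 to 347 RPM in GSCLC1 and from 0 through 35.0 to 316 RPM in GSCLC4. The lines of the types overlapped, and GSC2 was the highest of the 4. Rb1 was detected in 30 of 30 and 24 of 24 GSC cells and in 28 of 30 and 22 of 24 GSCLC cells. The log2 fold change was -0.39 ± 0.32 (SE, 95% interval -1.08 to 0.29), with a limma adjusted p of 0.775.

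Across the group, 8 of the 10 genes could be tested and 0 passed an adjusted p of 0.05 in limma, where 0.076% of the 10526 tested genes did (0.057% higher and 0.019% lower in GSCLC lines). At an unadjusted p under 0.05 there were 2, Ccnd1 and Cdk6, where 8.83% of all tested genes had one. Cdk6 was the 1 higher, against 5.03% of all tested genes, and Ccnd1 the 1 lower, against 3.8%. The line means of the types did not overlap for 4 of the 8, against 39.3% of all tested genes: Ccnd2, Cdk6 and Cdkn2d lay above (22% of all genes) and Ccnd1 below (17.3%). The means of Cdk6 and Cdkn2d rested on few cells, as given above. Cdk6 was also tested through the type in which it was high, which limits what its place in these counts can show. The 8 log2 fold changes had a median of 0.30, against 0.04 over all tested genes.

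**Figure D5:**
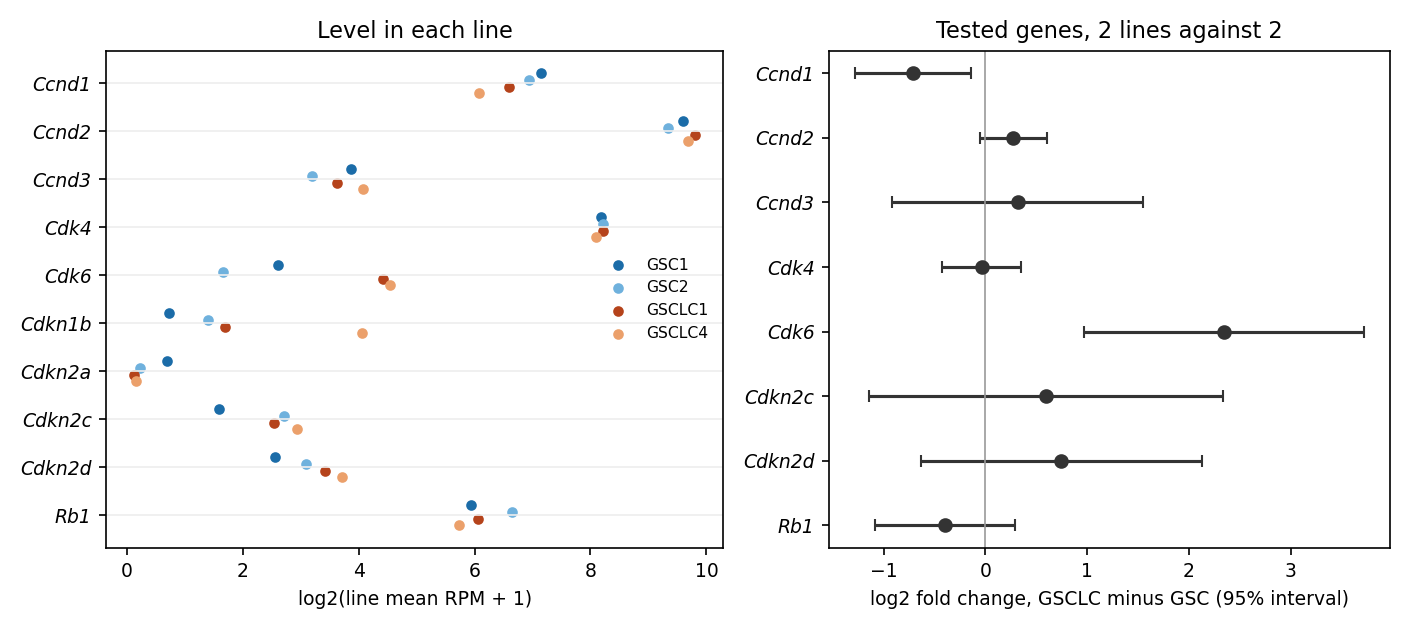
The first panel gives the mean of each line as log2(RPM + 1) for the 10 genes, and the second the log2 fold change of GSCLC against GSC lines with its 95% interval from limma for the 8 tested genes. The intervals of Ccnd1 (-1.29 to -0.14) and Cdk6 (0.97 to 3.72) do not reach 0, and neither gene passed after adjustment over 10526 genes. Cdk6 was tested through the type in which it was high.

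The wider pathway was described with lists of 78 other genes, of which 74 were tested. None passed the adjusted threshold (limma, 0 of 74), and 2 had an unadjusted p under 0.05, both higher in GSCLC lines. These were 2.70% of the listed genes tested, against 8.83% of all tested genes. The 2 genes were E2f7, an atypical E2F that represses E2F targets, and Plk1, a mitotic kinase. E2f7 had 21.2, 27.6, 49.9 and 59.9 RPM (log2 fold change 1.14 ± 0.36, SE, limma adjusted p = 0.428). Plk1 had 30.7, 26.5, 59.1 and 47.4 RPM (log2 fold change 0.87, limma adjusted p = 0.520). Of the 74 tested genes 43 were higher and 31 lower in GSCLC lines. Beside this and the counts by list below, 53.8% of all tested genes were higher.

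Of the pocket protein, E2F and DP genes 6 tested members were higher and 5 lower, with a median log2 fold change of 0.06. E2f1, an activating E2F, had 137.7, 115.4, 132.03 and 117.2 RPM. E2f6, a repressive E2F, had a log2 fold change of -0.48 (limma adjusted p = 0.707). Rbl2, which encodes the pocket protein p130, had at most 2.42 RPM in any line and was not tested, while Rbl1, which encodes p107, had 15.6 to 26.4 RPM. Rb1 therefore had the highest line mean of the 3 pocket protein genes in every line.

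For the cyclins and kinases that act after D-type cyclins, 2 tested genes were higher and 2 lower. Ccne1 was the main cyclin E, at 31.5 to 52.01 RPM against at most 2.35 RPM for Ccne2. Cdk2, their kinase, had a log2 fold change of -0.54 and the phosphatase gene Cdc25a one of 0.34 (limma adjusted p = 0.682 and 0.837). All 3 genes of the CDK-activating kinase were positive, though Cdk7 was close to 0 at 0.008. Ccnh was at 0.31 and Mnat1 at 0.41 (limma adjusted p = 0.744 and 0.738). In the list of cyclin D and p27 turnover 7 of 9 were positive, led by the kinase gene Gsk3b (0.67) and the F-box gene Skp2 (0.62), whose product marks p27 for degradation (limma adjusted p = 0.663 and 0.621).

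Among 7 genes that repress Cdkn2a or act with ARF, 3 were positive and 4 negative. Bmi1, a Polycomb gene that represses Cdkn2a, had 64.1, 66.7, 99.7 and 86.5 RPM (log2 fold change 0.50, limma adjusted p = 0.625), and Trp53 had a log2 fold change of 0.35 (limma adjusted p = 0.849). The 18 S phase targets of E2F were split evenly, 9 to 9, with a median log2 fold change of -0.0018. Cdc6 and Gins2, both needed to start replication, had log2 fold changes of 0.40 and -0.37 (limma adjusted p = 0.845 and 0.842). Of 18 G2 and M phase genes 10 were positive, and Birc5, which encodes survivin, followed Plk1 at 0.52 (limma adjusted p = 0.757).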

How the data were processed

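The authors deposited 1 table of expression signal in RPM, 1 column per cell, with 26218 genes and 92 spike-in RNAs, which were left out of the tests. The submitters' processing notes list TopHat 1.4.1, Cufflinks 2.2.0, cutadapt 1.3 and the build mm10; how strand and multiply mapped reads were treated is not stated there. The most frequent value above 0 in a cell was taken as 1 read, and 85.6% to 92.4% of the values of each cell came out whole (tolerance 0.05), too few for a count model.

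Line means were tested as log2(mean RPM + 1) in limma 3.58.1 (R 4.3.3) with a variance trend, for genes with 5 RPM in 2 lines, with Benjamini-Hochberg adjustment over all of them at 0.05. Folds of low genes are understated on that scale. The p-values cover the spread between lines only, and limma takes much of that spread from other genes of like level. Without the variance trend the limma unadjusted p was 0.0768 for Ccnd1 and 0.00251 for Cdk6. Shares of cells carry exact Clopper-Pearson intervals (counting error only), and shares between types were compared by two-sided exact permutation tests. The fit was also run on simulated line values with normal errors and limma's own fitted variance. Such values cannot show how it behaves for genes whose line means rest on few cells. The 10 genes and all lists were chosen with earlier results of these data known. Of each list, genes past the threshold were named, otherwise the 2 of largest change with 20 RPM in the higher type, and for each D-type cyclin the 3 genes most alike by median correlation with 20 RPM in every line. Dazl, Vim, other markers, Cdkn2b, E2f1, Rbl1, Rbl2, Ccne1 and Ccne2 are named to describe their lists. Positions are from RefSeq GRCm38.p6. Alternatives covered pseudocount, filter, summary over cells, scaling, variance trend, and leaving out cells or lines.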

Additional observations from a re-analysis of the deposited data

How the results depend on the processing

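None of the 10 genes and none of the tested pathway genes passed the threshold in any of 15 limma alternatives (1 to 2 and 0 to 7 at an unadjusted p under 0.05). Ccnd1 stayed lower (log2 -0.97 to -0.45), Rb1 lower (-0.74 to -0.05), Ccnd2 higher (0.14 to 0.40) and Cdk6 higher (1.21 to 3.64, adjusted p from 0.114 to 0.771) in GSCLC lines in all 15. Cdkn2c and Cdkn2d stayed positive in the 12 and 14 alternatives that tested them. The Ccnd3 difference ranged from -0.025 (without GSC2) to 0.66 (without GSC1) over left-out lines, and the Cdk4 difference from -0.099 (without GSCLC1) to 0.023 (without GSCLC4). The unadjusted p of Ccnd1 lay between 0.00608 and 0.135.

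The number of genes past the threshold over the whole table, 8, was 3 with a pseudocount of 0.1, 14 with 10, 0 without a filter (1388 at an unadjusted p under 0.05), 23 with a filter at 20 RPM, 22 with means of log2 values over cells, 3 with median-of-ratios scaling, 34 with spike-in scaling, 0 without the variance trend (871 unadjusted), and 4 or 2 with only the first or second run of GSC1 cells. It ranged from 3 to 19 over left-out lines; a line left alone in its type was assumed to vary like the others.

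The Ccnd2 share differed by 4.58 to 8.74 percentage points, with no change of sign. The Cdk4 share differed by -6.62 to -5.06 points on line means. As a median within cells the Cdk4 difference nearly vanished (-0.11), at shares of 100%, 100%, 99.8% and 100%. The Cdkn2d share of the INK4 genes was 4.28 points higher in GSCLC lines but 31.7 points lower (-31.7) as a median within cells, 27.03 points higher with only the first run of GSC1 cells and 9.69 points lower (-9.69) with only the second, and the cause was not tested. Members in over 50% of cells of every line numbered 5, or 4 at 5 RPM or more. Added after seeing the data were pathway lists under all limma settings but the filter at 20 RPM and the left-out lines, shares of cells and levels of listed genes without the low-gene cell, and the kinase and INK4 shares by run of GSC1 cells. No paired analysis was possible because the numbers in the titles name single cells and the units tested are lines. Depth limits statements on Cdkn2a, Cdkn1b and the INK4 genes, whose median in most lines is 0.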
